A study of Mus musculus with 12 samples.

Results

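The transcripts described here encode membrane proteins that have been reported as cleaved by the BACE proteases: Cltrn, Sez6l, Sez6l2, Fgfr1, Plxna3, App, Aplp1, Aplp2 and Igf2r. They were found as the probe sets whose single gene symbol in the platform annotation was one of these 9 names. That gave 19 of the 45141 probe sets, for 8 of the 9 genes. Igf2r, the receptor that takes up insulin-like growth factor 2, was represented only by a probe set shared with the antisense transcript Airn, so it was not analysed here. Cltrn had 1 probe set, Sez6l, Sez6l2, Plxna3, App and Aplp1 had 2 each, Fgfr1 had 3 and Aplp2 had 5.

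BACE1 and BACE2 are related aspartyl proteases that cut the outer part of single-pass membrane proteins near the membrane, which releases it from the cell. BACE1 is best known in neurons, where its cut of the amyloid precursor protein is the first step towards the amyloid beta peptide. BACE2 is abundant in pancreatic beta cells, where it sheds collectrin, the product of Cltrn. Shedding acts on the protein, whereas the arrays measured the transcripts.

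Islets of Langerhans, the hormone-secreting cell clusters of the pancreas, were taken from mice aged 12 weeks and kept on standard chow, and their RNA was hybridised to Affymetrix arrays. The 4 genotypes had 3 arrays each: mice with a transgene for human islet amyloid polypeptide and without BACE2 (hIAPP/BACE2-KO), mice without BACE2 (BACE2-KO), mice with the transgene (hIAPP), and wild type mice (WT). The labels give the strain of all of these groups, the wild type included, as B6;129P2-Bace2tm1Bdes/J. What drives the transgene, and how many mice stand behind an array, is not given in the labels. The p-values below therefore cover the spread between arrays, which may be technical.

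The arrays carried islet RNA: over the 12 arrays Ins2 lay between 13.93 and 14.03, at the top of each array, and Gcg between 13.05 and 13.22 on the log2 scale. Acinar transcripts were measured in all of them, with the enzyme Ctrb1 between 10.95 and 13.04, while the Schwann and neural markers averaged 3.45 to 3.8 over an array. Because the islets were measured whole, fewer cells of a type and less RNA per cell cannot be told apart. The probe set for Bace2 with the highest level averaged 10.85 ± 0.17 in hIAPP/BACE2-KO, 10.94 ± 0.08 in BACE2-KO, 11 ± 0.10 in hIAPP and 11.09 ± 0.16 in WT islets (SD, n = 3 each). This transcript therefore did not check the genotype labels. Whether its probes lie within the deleted part of the gene was not tested.

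No transcript of the reported substrates passed the test for a difference in any comparison. With BACE2 loss averaged over transgene status, 0 of 8 were called at a Benjamini-Hochberg adjusted p under 0.05 in limma, against 0.92% of the 12825 genes tested. Of the 8, 6 had a positive and 2 a negative difference, and the median difference was 0.06 log2 against 0.02 for all genes. At an unadjusted p under 0.05 there were 3 of 8, Sez6l, Fgfr1 and Plxna3, where the share of all genes was 11.4%. BACE2-KO against WT also called 0 of 8 (all genes 0.125%), with 2 at an unadjusted p under 0.05 (all genes 6.28%) and a median of 0.10 against 0.01. hIAPP/BACE2-KO against hIAPP called 0 of 8 (all genes 0.101%), with 3 at an unadjusted p under 0.05 (all genes 8.37%) and a median of 0.08 against 0.03. The arrays of both sides did not overlap for 2 of 8 in BACE2-KO against WT (all genes 12.9%) and for 3 of 8 in hIAPP/BACE2-KO against hIAPP (all genes 11.1%). For 1 of 8, Fgfr1, the 6 arrays without BACE2 did not overlap the 6 with it (all genes 1.36%). Some marker lists also separated with BACE2 loss. The mean of 3 alpha cell markers lay between 10.75 and 11.02 in BACE2-KO against 10.46 and 10.72 in WT islets. The mean of 3 Y-linked markers lay between 7.45 and 7.48 against 7.54 and 7.66. Both overlapped between hIAPP/BACE2-KO and hIAPP, where 4 lymphocyte markers did not, at 4.32 to 4.57 against 4.60 to 5.0. Their part in these differences was not tested.

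**Figure D1:**
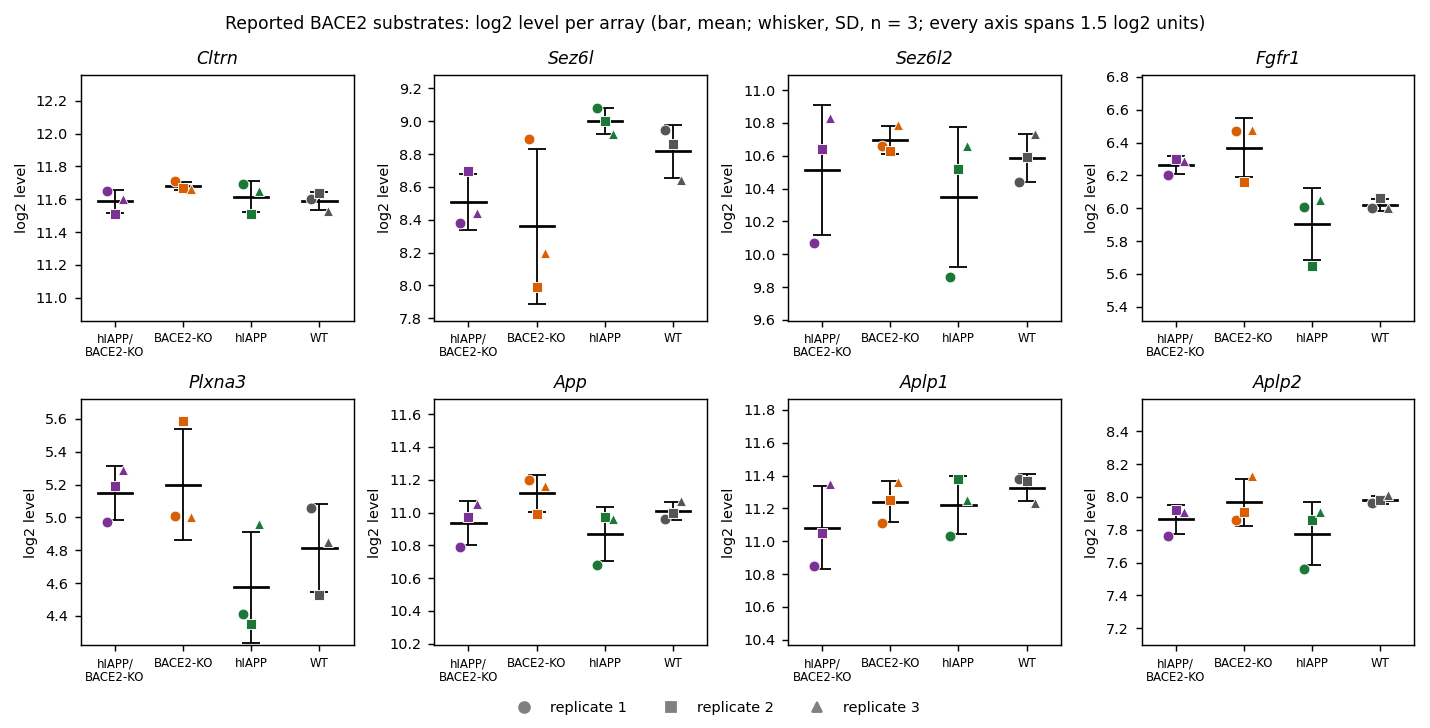
Log2 level (y axis) of the 8 measured transcripts in every array, by genotype (x axis); each point is 1 array, its shape the replicate number, the bar the mean and the whisker the SD of 3 arrays. Every panel spans the same number of log2 units, and only for Fgfr1 do all arrays without BACE2 lie above all arrays with it.

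**Figure D2:**
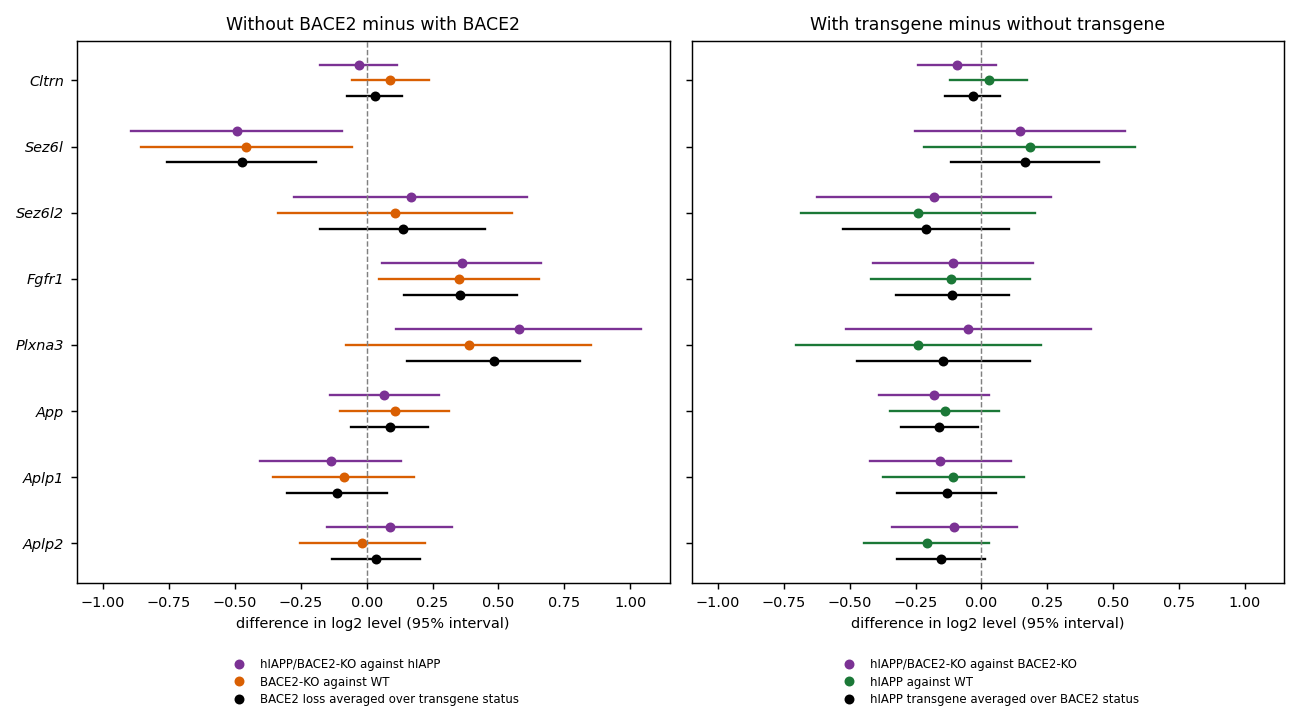
Fitted difference in log2 level (x axis) for each transcript, with its 95% interval, for islets without BACE2 minus islets with it (left) and for islets with the transgene minus islets without it (right). The averaged intervals for BACE2 loss lie below 0 for Sez6l and above 0 for Fgfr1 and Plxna3, before adjustment for the number of genes tested.

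Cltrn encodes collectrin, a protein of beta cells and kidney tubules that has been linked to insulin secretion and to amino acid transport. Its transcript spanned the narrowest range of the 8 over the 12 arrays. It read 11.65, 11.51 and 11.60 in hIAPP/BACE2-KO, 11.71, 11.67 and 11.66 in BACE2-KO, 11.69, 11.51 and 11.65 in hIAPP, and 11.60, 11.64 and 11.53 in WT islets. The 3 BACE2-KO arrays lay above the 3 WT arrays, and the hIAPP/BACE2-KO arrays overlapped the hIAPP arrays. The averaged difference with BACE2 loss was 0.03 ± 0.05 (SE), with a 95% interval from -0.07 to 0.13 and an adjusted p of 0.8735. BACE2-KO differed from WT by 0.09 (adjusted p = 0.9546), and hIAPP/BACE2-KO differed from hIAPP by -0.03 (adjusted p = 0.9491).

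The promoter of Cltrn is shown for its base composition, which differed from that of the 6 other substrates with a promoter in the RefSeq table (Fgfr1 and Sez6l2 had none). It is the upstream one of its 2 promoters there (GRCm38.p6, chrX:164089937-164090236, plus strand, 250 bases before to 50 after the start site).
Cltrn promoter: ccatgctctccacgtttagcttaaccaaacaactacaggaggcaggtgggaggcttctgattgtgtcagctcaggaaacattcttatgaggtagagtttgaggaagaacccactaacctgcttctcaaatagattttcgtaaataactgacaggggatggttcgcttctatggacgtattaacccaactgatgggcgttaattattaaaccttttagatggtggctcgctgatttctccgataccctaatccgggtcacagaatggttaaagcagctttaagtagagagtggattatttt
Its GC content was 43.0%, against a median of 52.7% over the 32851 promoters of this length, and that of the second Cltrn promoter was 49.3%.

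Sez6l and Sez6l2 encode neuronal-type membrane proteins of the seizure 6 family that islets also carry and that have been reported as BACE2 substrates in islets. Sez6l had the most negative difference of the 8 with BACE2 loss. It read 8.38, 8.70 and 8.44 in hIAPP/BACE2-KO, 8.89, 7.99 and 8.20 in BACE2-KO, 9.08, 9.0 and 8.92 in hIAPP, and 8.95, 8.86 and 8.64 in WT islets. All 3 hIAPP/BACE2-KO arrays lay below all 3 hIAPP arrays, whereas the first BACE2-KO array lay among the WT arrays. The group means were 8.51 ± 0.17 in hIAPP/BACE2-KO, 8.36 ± 0.47 in BACE2-KO, 9.0 ± 0.08 in hIAPP and 8.82 ± 0.16 in WT islets (SD, n = 3 each). The averaged difference was -0.48 ± 0.13 (SE), with a 95% interval from -0.76 to -0.19, an unadjusted p of 0.003122 and an adjusted p of 0.1408 in limma over 12825 genes. hIAPP/BACE2-KO differed from hIAPP by -0.49 (adjusted p = 0.4708) and BACE2-KO from WT by -0.46 (adjusted p = 0.7307). BACE2-KO against WT gave -0.72 without the first BACE2-KO array (adjusted p = 0.09025) and -0.27 without the second. Without the first BACE2-KO array the averaged difference was -0.61 and Sez6l was called (adjusted p = 0.00888). That was the single setting of all those tried that called any of the 8. The same array had the lowest mean of the 3 delta cell markers among the 12, at 9.85 against 10.89 and 10.83 in the other BACE2-KO arrays, and its part in the result was not tested. The second Sez6l probe set had the same high array: it read 8.83, 7.98 and 8.09 in BACE2-KO against 8.73, 8.64 and 8.64 in WT islets. Its averaged difference was -0.37 ± 0.13 (SE, adjusted p = 0.3432 over 33864 probe sets).

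The promoter of Sez6l is shown as that of the substrate with the most negative difference, and for its base composition beside that of Cltrn. It lies on the minus strand at chr5:112577149-112577448 of GRCm38.p6 in the RefSeq table. The letters GGGCGG, the core of the GC box that Sp1 binds, are in capitals where they occur on either strand.
Sez6l promoter: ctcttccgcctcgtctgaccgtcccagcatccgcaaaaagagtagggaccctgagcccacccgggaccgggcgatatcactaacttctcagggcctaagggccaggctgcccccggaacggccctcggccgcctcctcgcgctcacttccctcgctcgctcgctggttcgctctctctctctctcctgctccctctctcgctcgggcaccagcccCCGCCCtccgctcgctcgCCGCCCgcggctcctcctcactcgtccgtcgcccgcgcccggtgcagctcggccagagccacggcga
Its GC content was 70.7%, and those of the Plxna3, App, Aplp1, Aplp2 and Igf2r promoters were between 67.0% and 71.0%. Each of these 6 held the letters GGGCGG on either strand, as did 35.7% of all promoters, and both Cltrn promoters lacked them. A match is a description of the letters and no evidence of binding. Neither TGACGTCA (1.79% of all promoters) nor TTCAGCACC (0.371%) was in any of them, on either strand.

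Sez6l2 read 10.07, 10.64 and 10.83 in hIAPP/BACE2-KO, 10.66, 10.63 and 10.79 in BACE2-KO, 9.86, 10.52 and 10.66 in hIAPP, and 10.44, 10.59 and 10.73 in WT islets. The first arrays of both transgenic groups were the lowest of the 12, and the other arrays overlapped. The averaged difference with BACE2 loss was 0.14 ± 0.15 (SE), with a 95% interval from -0.18 to 0.45 and an adjusted p of 0.7933. The second probe set differed by 0.10 (adjusted p = 0.8602).

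Fgfr1 encodes a receptor tyrosine kinase for fibroblast growth factors. Its brightest probe set read 6.20, 6.30 and 6.29 in hIAPP/BACE2-KO, 6.47, 6.16 and 6.48 in BACE2-KO, 6.01, 5.65 and 6.05 in hIAPP, and 6.0, 6.06 and 6.0 in WT islets. The lowest of the 6 arrays without BACE2 stood at 6.16 and the highest of the 6 with it at 6.06. The averaged difference was 0.36 ± 0.10 (SE), with a 95% interval from 0.14 to 0.57, an unadjusted p of 0.003452 and an adjusted p of 0.1476. It was 0.35 in BACE2-KO against WT (adjusted p = 0.7203) and 0.36 in hIAPP/BACE2-KO against hIAPP (adjusted p = 0.4931). The other 2 probe sets of Fgfr1 differed by 0.13 (adjusted p = 0.887) and 0.15 (adjusted p = 0.6468). The mean of the 3 probe sets differed by 0.21.

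Fgfr1 lies on mouse chromosome 8 in the RefSeq order (GRCm38.p6). Among its 20 nearest tested genes 1 was called with BACE2 loss averaged, and among its 60 nearest also 1 (all genes 0.92%). The called gene was Star, which encodes the protein that brings cholesterol into mitochondria for steroid synthesis and lies 5 tested genes away. Star read 6.41, 7.11 and 6.41 in hIAPP/BACE2-KO, 6.38, 6.93 and 6.57 in BACE2-KO, 5.0, 4.99 and 4.81 in hIAPP, and 4.92, 5.24 and 5.65 in WT islets. Its averaged difference was 1.53 ± 0.16 (SE, adjusted p = 0.0007163). Star also rose in each pair, by 1.71 in hIAPP/BACE2-KO against hIAPP (adjusted p = 0.01456) and by 1.36 in BACE2-KO against WT (adjusted p = 0.04618). The first BACE2-KO array, which stood with the WT arrays for Sez6l, stood with the other arrays without BACE2 for Star. Star was named because it was called in these same arrays, so its level is no check of that array. The median difference of the 20 genes nearest to Fgfr1 was 0.03, and Adam9, a sheddase gene 6 tested genes away, differed by -0.02 (adjusted p = 0.9302). Whether alleles of the strain that carried the deletion are still linked to Fgfr1 was not tested. None of the 20 nearest tested genes of any other measured substrate was called with BACE2 loss averaged (all genes 0.92%). App lies on chromosome 16, as Bace2 does, with 66 tested genes between them.

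**Figure D3:**
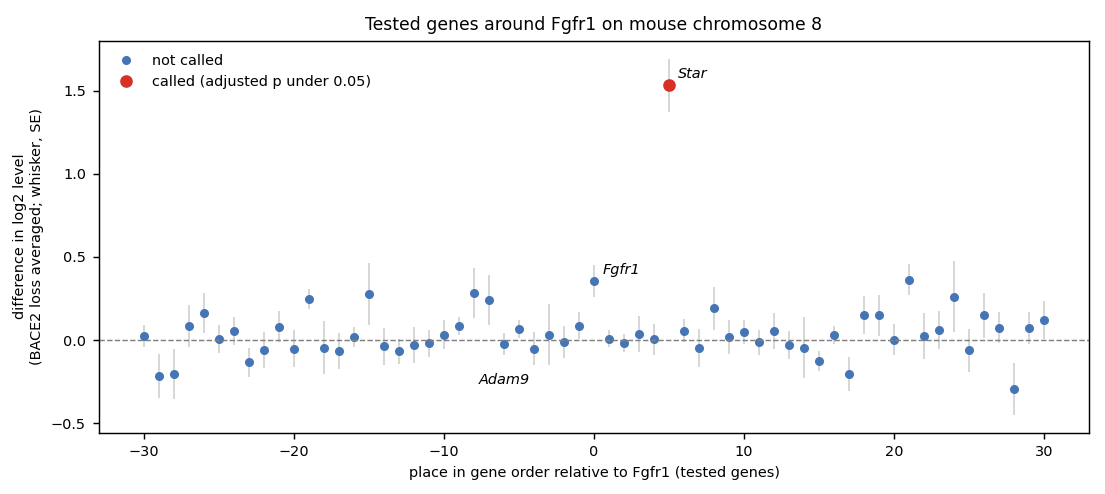
Difference in log2 level with BACE2 loss averaged over transgene status (y axis; whisker, SE) for the tested genes on either side of Fgfr1 on chromosome 8, by place in the gene order (x axis). Star, at 1.53, is the only called gene in the window, and Fgfr1, at 0.36, is not called.

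Plxna3 encodes a plexin, the signalling part of receptors for semaphorins, which guide growing axons and vessels. It read 4.97, 5.19 and 5.29 in hIAPP/BACE2-KO, 5.01, 5.59 and 5.0 in BACE2-KO, 4.41, 4.35 and 4.96 in hIAPP, and 5.06, 4.53 and 4.85 in WT islets. The hIAPP/BACE2-KO arrays lay just above the hIAPP arrays, by 0.01 at the nearest point, and the BACE2-KO arrays overlapped the WT arrays. The averaged difference was 0.48 ± 0.15 (SE), with a 95% interval from 0.15 to 0.81 and an adjusted p of 0.2129. It was 0.58 in hIAPP/BACE2-KO against hIAPP (adjusted p = 0.4707) and 0.39 in BACE2-KO against WT (adjusted p = 0.8851), where it was 0.19 without the second BACE2-KO array (adjusted p = 0.9999). The second probe set, near the bottom of the scale, differed by 0.21 (adjusted p = 0.4556).

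App encodes the amyloid precursor protein, and Aplp1 and Aplp2 its relatives, which share most of its structure but not the amyloid beta sequence. App read 10.79, 10.97 and 11.05 in hIAPP/BACE2-KO, 11.20, 10.99 and 11.16 in BACE2-KO, 10.68, 10.97 and 10.96 in hIAPP, and 10.96, 11 and 11.07 in WT islets. Its averaged difference with BACE2 loss was 0.09 ± 0.07 (SE), with a 95% interval from -0.06 to 0.23 (adjusted p = 0.6982), and that of its second probe set was 0.15 (adjusted p = 0.5063). Aplp1 averaged 11.08 ± 0.25 in hIAPP/BACE2-KO, 11.24 ± 0.13 in BACE2-KO, 11.22 ± 0.18 in hIAPP and 11.33 ± 0.08 in WT islets (SD, n = 3 each). The averaged difference of Aplp1 was -0.11 ± 0.09 (SE), with a 95% interval from -0.30 to 0.08. Aplp2 averaged 7.86 ± 0.09 in hIAPP/BACE2-KO, 7.97 ± 0.14 in BACE2-KO, 7.78 ± 0.19 in hIAPP and 7.98 ± 0.03 in WT islets. Its averaged difference was 0.04 ± 0.08 (SE), with a 95% interval from -0.13 to 0.20. The 5 probe sets of Aplp2 differed by between -0.07 and 0.19 and did not share a sign. Of all 19 probe sets of the 8 genes, 0 were called with BACE2 loss averaged (all probe sets 0.679%).

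**Figure D4:**
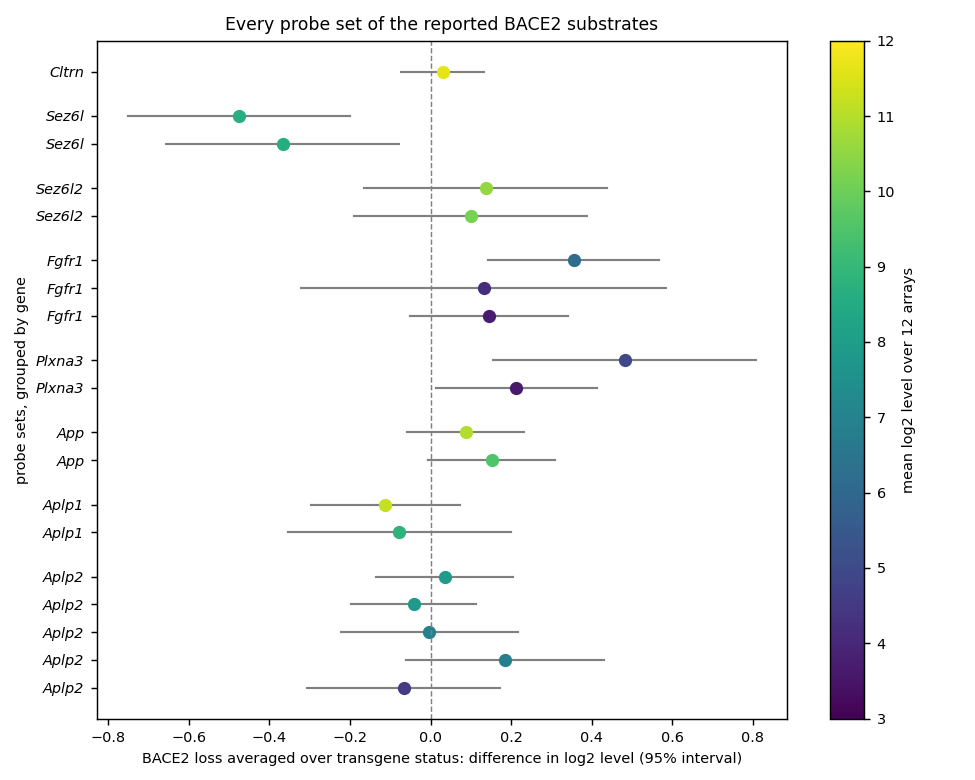
Difference in log2 level with BACE2 loss averaged over transgene status (x axis, with its 95% interval) for all 19 probe sets, grouped by gene (y axis) and coloured by mean log2 level over the 12 arrays. The 2 Sez6l probe sets lie below 0, at -0.48 and -0.37, and the dimmer probe sets of Fgfr1 and Plxna3 lie closer to 0 than the brighter ones.

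With the transgene, 7 of the 8 transcripts had a negative difference when averaged over BACE2 status, and none was called (all genes 0.0078%). The median difference was -0.14, against -0.02 over all genes tested. The mean of 5 macrophage markers lay between 7.04 and 7.26 in hIAPP against 6.45 and 6.49 in WT islets, and between 6.21 and 7.20 in hIAPP/BACE2-KO against 6.37 and 6.70 in BACE2-KO islets. The mean of 4 lymphocyte markers lay between 4.60 and 5.0 in hIAPP against 4.18 and 4.48 in WT islets, and between 4.32 and 4.57 in hIAPP/BACE2-KO against 4.20 and 4.68 in BACE2-KO islets. Both lists were thus without overlap between hIAPP and WT and overlapped between the groups without BACE2. There the 7 beta cell markers did not overlap, at 11.06 to 11.26 in hIAPP/BACE2-KO against 11.28 to 11.34 in BACE2-KO islets. Nor did the 3 Y-linked markers, at 7.51 to 7.59 against 7.45 to 7.48. Between hIAPP and WT the beta cell and Y-linked lists overlapped. The part of all these lists in the transgene differences was not tested. App differed by -0.16 ± 0.07 (SE), with a 95% interval from -0.31 to -0.01, an unadjusted p of 0.03492 and an adjusted p of 0.6436. It was the only one of the 8 with an unadjusted p under 0.05, where all genes had 7.59%. For 0 of 8 did the 6 arrays with the transgene separate from the 6 without it (all genes 0.288%). Aplp2 differed by -0.16 (adjusted p = 0.6715), Sez6l2 by -0.21 (adjusted p = 0.7166) and Aplp1 by -0.13 (adjusted p = 0.7079). Sez6l, at 0.17 (adjusted p = 0.7405), was the one with a positive difference. With single arrays left out, the difference ran from -0.29 to -0.09 for Sez6l2 and from -0.20 to -0.07 for Aplp1. For Sez6l it ran from 0.07 to 0.30. Each of these fits kept the first hIAPP array, the first hIAPP/BACE2-KO array or both. Those arrays read 9.86 and 10.07 for Sez6l2 and 11.03 and 10.85 for Aplp1. The other transgenic arrays read 10.52 to 10.83 for Sez6l2, where arrays without the transgene read 10.44 to 10.79. For Aplp1 these ranges were 11.05 to 11.38 and 11.11 to 11.38. The transgene differences without both first arrays were not tested. A further probe set of Aplp2, the one with the most negative difference, differed by -0.32 (unadjusted p = 0.00806, adjusted p = 0.7231 over all probe sets). The remaining probe sets of Aplp2 differed by -0.15, -0.06 and -0.06. With the transgene averaged, 0 of the 19 probe sets were called (all probe sets 0.00591%). hIAPP against WT called 0 of 8 (all genes 0.0156%), with a median of -0.13 and a range from -0.24 to 0.18. At an unadjusted p under 0.05 it had 0 of 8 (all genes 4.52%), and 1 of 8, Aplp2 at -0.21, did not overlap (all genes 9.16%). hIAPP/BACE2-KO against BACE2-KO called 0 of 8 (all genes 0), with a median of -0.11 and a range from -0.18 to 0.15. At an unadjusted p under 0.05 it had 0 of 8 (all genes 4.44%), and 1 of 8, Cltrn at -0.09, did not overlap (all genes 9.68%).

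The islets with both changes were also set against WT, and the differences with BACE2 loss were compared between islets with and without the transgene. hIAPP/BACE2-KO against WT called 0 of 8 (all genes 0.133%), with differences from -0.31 for Sez6l to 0.34 for Plxna3, a median of -0.07, and 0 of 8 at an unadjusted p under 0.05 (all genes 8.43%). Fgfr1, at 0.24, lay higher in all 3 hIAPP/BACE2-KO arrays, and Aplp2, at -0.12, lower, so 2 of 8 did not overlap (all genes 14.9%). In the interaction 0 of 8 were called (all genes 0.0078%), with differences from -0.12 to 0.19 and 0 of 8 at an unadjusted p under 0.05 (all genes 2.4%). The interaction for Sez6l was -0.04, with a 95% interval from -0.60 to 0.53, and that for Fgfr1 was 0.01, from -0.42 to 0.44. Both intervals reach farther from 0 than the averaged differences with BACE2 loss.

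The levels of 3 of the transcripts were correlated with the beta cell markers across arrays. The mean of the 7 measured markers was 11.06, 11.13 and 11.26 in hIAPP/BACE2-KO, 11.28, 11.34 and 11.34 in BACE2-KO, 10.66, 11.13 and 11.30 in hIAPP, and 11.39, 11.25 and 11.43 in WT islets. Of 16 relations computed (8 transcripts with beta cell and with acinar markers), Aplp2 had a Pearson r of 0.88 over the 12 arrays (permutation p = 0.0006, adjusted p = 0.0094) and a Spearman rho of 0.70 (permutation p = 0.0141, adjusted p = 0.226). For Sez6l2 r was 0.82 (permutation p = 0.004, adjusted p = 0.0213) and rho 0.53 (permutation p = 0.0784, adjusted p = 0.378). For App r was 0.79 (permutation p = 0.0033, adjusted p = 0.0213) and rho 0.51 (permutation p = 0.0944, adjusted p = 0.378). The 2 arrays farthest from the median were the first hIAPP and the first hIAPP/BACE2-KO array, which had the lowest marker means. Without them r was 0.50 for Aplp2, 0.15 for Sez6l2 and 0.27 for App, so the relations rested on those arrays. The permutations did not keep arrays within their genotype, so these p-values mix differences between genotypes with those between arrays. For deviations from the genotype means r was 0.79 for Aplp2, 0.83 for Sez6l2 and 0.72 for App, with those 2 arrays included. For Cltrn r was -0.18 (permutation p = 0.598, adjusted p = 0.736) and rho -0.02 (permutation p = 0.941). Without those 2 arrays r was 0.38 for Cltrn, so its contrast with the other 3 transcripts also rested on them. For deviations from the genotype means, with those arrays included, r for Cltrn was -0.44. No relation with the acinar markers had an adjusted p under 0.172. How much of the transgene differences of App, Aplp2 and Sez6l2 goes with the beta cell markers was not tested.

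**Figure D5:**
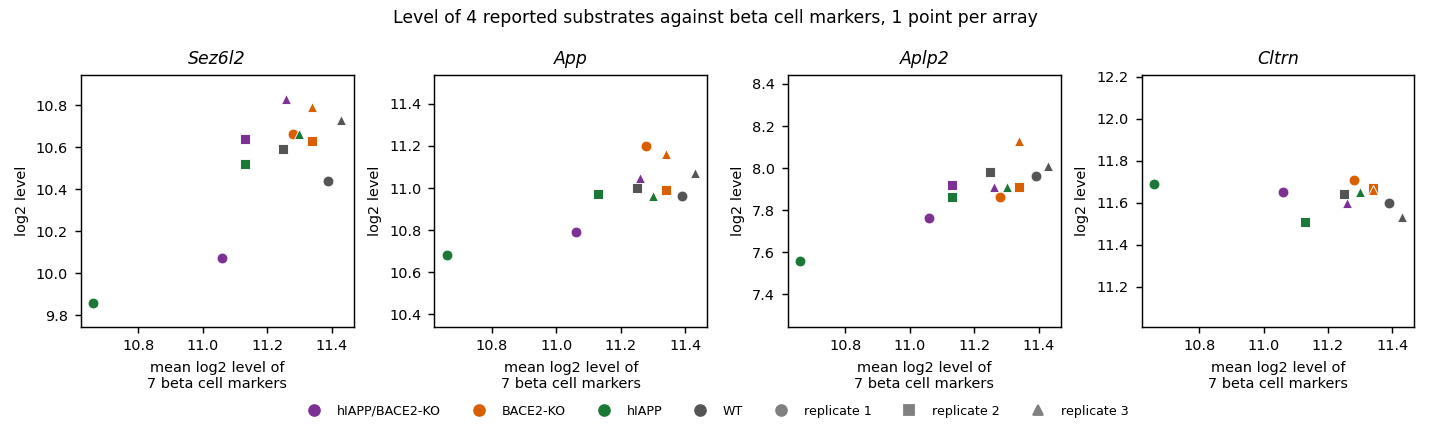
Log2 level of Sez6l2, App, Aplp2 and Cltrn (y axes) against the mean log2 level of 7 beta cell markers (x axis), 1 point per array, coloured by genotype and shaped by replicate number. The first hIAPP array, at a marker mean of 10.66, and the first hIAPP/BACE2-KO array, at 11.06, are the lowest points for Sez6l2, App and Aplp2 but not for Cltrn.

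Some of the substrates were also correlated with each other, given here as a description over 12 arrays in which each pair shares its RNA and scaling. Sez6l2 and App had a Pearson r of 0.89, Sez6l2 and Aplp2 0.85, and App and Aplp2 0.79, and these values take in the same 2 low arrays. Sez6l and Plxna3 ran opposite, with r = -0.71. Among all tested genes those closest to Cltrn over the 12 arrays were Nhlrc3 (r = 0.90), Zfp740 (0.89) and Krt222 (0.89). For Sez6l they were Epb41l4b (r = 0.94), Uba7 (0.89) and Rnf150 (0.88). For Sez6l2 they were Trappc10 (r = 0.97), Daxx (0.96) and Clasp1 (0.96), and for Fgfr1 Git2 (r = 0.95), Erlin1 (0.93) and Panx2 (0.90). These genes were picked from all tested genes for the highest r in these same 12 arrays. Their values are therefore no test of a relation.

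The transcripts of the proteases that cut such proteins did not pass the test either. Of 12 genes for secretases and sheddases 11 were tested, and 0 were called in any comparison (all genes between 0 and 0.92%). With BACE2 loss averaged, 3 had a positive and 8 a negative difference, with a median of -0.03. Bace1 averaged 7.62 ± 0.14 in hIAPP/BACE2-KO, 7.67 ± 0.05 in BACE2-KO, 7.59 ± 0.17 in hIAPP and 7.67 ± 0.08 in WT islets (SD, n = 3 each). Its averaged difference with BACE2 loss was 0.01 ± 0.08 (SE), with a 95% interval from -0.15 to 0.18. Adam10, the main alpha-secretase, differed by -0.03 (adjusted p = 0.9436) and Adam17, which sheds tumour necrosis factor, by -0.08 (adjusted p = 0.7986). With the transgene Adam10 differed by 0.22 (unadjusted p = 0.03569, adjusted p = 0.6436). There 1 of 11 had an unadjusted p under 0.05 (all genes 7.59%). Aph1c, a subunit of gamma-secretase, was chosen after its values were seen. With BACE2 loss averaged it made up the 1 of 11 with an unadjusted p under 0.05 (all genes 11.4%). It differed by 0.39 (adjusted p = 0.2403), by 0.63 in BACE2-KO against WT (adjusted p = 0.4153) and by 0.15 in hIAPP/BACE2-KO against hIAPP (adjusted p = 0.8763).

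Of 22 other membrane proteins reported as cleaved by BACE proteases, 15 were tested and 0 were called in any comparison (all genes between 0 and 0.92%). With BACE2 loss averaged, 9 had a positive and 6 a negative difference, and the median was 0.04. The 3 of 15 with an unadjusted p under 0.05 (all genes 11.4%) were positive, and they are named here after their values were seen. Chl1, a neural cell adhesion molecule, read 6.08, 5.64 and 5.77 in hIAPP/BACE2-KO, 4.18, 4.70 and 4.57 in BACE2-KO, 5.14, 4.10 and 3.99 in hIAPP, and 3.91, 4.65 and 4.0 in WT islets. Its difference was 0.86 with BACE2 loss averaged (adjusted p = 0.08525) and 0.30 in BACE2-KO against WT (adjusted p = 0.9972). All 3 hIAPP/BACE2-KO arrays lay above the other 9, and hIAPP/BACE2-KO differed from hIAPP by 1.42 ± 0.29 (SE, adjusted p = 0.1316) and from WT by 1.64 (adjusted p = 0.06397). Scn2b, a beta subunit of voltage-gated sodium channels, differed by 0.46 ± 0.11 (SE) with BACE2 loss averaged (adjusted p = 0.08392). It was dim, at a mean of 4.62 in hIAPP/BACE2-KO, 4.63 in BACE2-KO, 4.09 in hIAPP and 4.25 in WT islets. The array medians ran from 4.22 to 4.35. L1cam, a relative of Chl1, differed by 0.37 (adjusted p = 0.4256). Sez6, the third gene of the seizure 6 family, differed by 0.04 (adjusted p = 0.9171).

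Of 25 relatives, ligands and partners of the reported substrates 21 were tested, and 0 were called in any comparison (all genes between 0 and 0.92%). With BACE2 loss averaged, 14 had a positive and 7 a negative difference, with a median of 0.05. At an unadjusted p under 0.05 there were 2 of 21, Igf1r and Klb (all genes 11.4%). Igf1r, the receptor for insulin-like growth factor 1, averaged 9.84 ± 0.39 in hIAPP/BACE2-KO, 9.83 ± 0.27 in BACE2-KO, 9.37 ± 0.37 in hIAPP and 9.37 ± 0.27 in WT islets (SD, n = 3 each). Its averaged difference was 0.47 ± 0.16 (SE), with a 95% interval from 0.13 to 0.81 and an adjusted p of 0.2529. Igf2, a ligand of both Igf1r and Igf2r, differed by 0.21 (adjusted p = 0.7307). Klb, the coreceptor that lets FGF receptors answer FGF21, read 7.01, 6.65 and 7.25 in hIAPP/BACE2-KO, 7.11, 7.17 and 7.27 in BACE2-KO, 6.29, 6.53 and 6.78 in hIAPP, and 6.62, 6.64 and 6.71 in WT islets. It was chosen after its values were seen, as the list's gene with the smallest p. The BACE2-KO arrays lay above the WT arrays, the hIAPP/BACE2-KO arrays overlapped the hIAPP arrays, and the averaged difference was 0.48 ± 0.11 (SE, adjusted p = 0.07668).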

How the data were processed

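The authors deposited log2 levels for each probe set on each array. The submitters' processing notes name RMA, which corrects background, brings arrays to a common scale and condenses the probes of a set, and the R package affy, without versions. Scaling between arrays can hide a change shared by most transcripts, and dim probe sets can understate a difference. Array medians ran from 4.22 to 4.35, and at most 2.22% of an array's values equalled another's. Arrays give no read depth, and their number limits the precision.

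The platform annotation named 28898 probe sets with 1 symbol, 551 with several and left 15692 unlisted. Each of 17097 genes was represented by its probe set with the highest mean. Genes under the 25th percentile (log2 3.43) were left out, which kept 12825 and all 8 measured substrates. limma 3.58.1 in R 4.3.3 fitted a mean per genotype to all 12 arrays (eBayes with a variance trend), with two-sided p-values adjusted over all genes tested by Benjamini-Hochberg and a threshold of 0.05. The same fit was run on each of the 33864 probe sets over log2 3.29. The steps were tested on simulated data. Permutation p-values used 100000 draws over all 12 arrays, without regard to genotype. Promoter sequences came from RefSeq (GRCm38.p6), and 7 of the 9 substrates matched. The genes named were all the substrates, any called member of the 3 lists, Bace1, Bace2, Adam10, Adam17, Sez6, Igf2 and Igf1r, the 3 genes most like Cltrn, Sez6l, Sez6l2 and Fgfr1, and called neighbours of Fgfr1. Aph1c, Chl1, Scn2b, L1cam and Klb were added after their values were seen, and Adam9 as a list member near Fgfr1. Some other genes of that rule are not reported here. The substrates and lists were chosen with earlier results of these data known.

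Tried as alternatives were other level filters, averaging of a gene's probe sets, quantile normalization or median centring of the values, other variance settings, a fit without the groups not compared, a replicate block, weighted arrays, a covariate for acinar or for Y-linked transcripts, a threshold of 0.1, and the omission of each array. The relations with cell markers were added after seeing the data. Plots used matplotlib.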

Additional observations from a re-analysis of the deposited data

How the results depend on the processing

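In all 8 comparisons 0 substrates were called under every alternative except 1: with an array left out, the number called with BACE2 loss averaged ran from 0 to 1, the 1 being Sez6l without the first BACE2-KO array. A looser threshold of 0.1 also called 0. Over all settings the averaged difference with BACE2 loss ran from -0.61 to -0.38 for Sez6l (adjusted p from 0.00888 to 0.3239), from 0.21 to 0.41 for Fgfr1 (0.09382 to 0.414) and from 0.35 to 0.58 for Plxna3 (0.1213 to 0.3933), which a filter at the 50th percentile removed.

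Of 1130 recomputed differences 21 changed sign, and 35 of the 48 differences kept theirs throughout. With single arrays left out, Aplp2 ran from -0.098 to 0.037 in BACE2-KO against WT (and 0.012 without the second BACE2-KO array) and from -0.019 to 0.068 with BACE2 loss averaged (-0.006 without the third BACE2-KO array). In hIAPP/BACE2-KO against hIAPP, Cltrn ran from -0.083 to 0.008, Sez6l2 from -0.077 to 0.388, App from -0.028 to 0.14 and Aplp2 from -0.022 to 0.153, and the first hIAPP array gave the lowest values of the last 3. In hIAPP against WT, Cltrn ran from -0.01 to 0.08, Sez6l2 from -0.397 to 0.003 and Fgfr1 from -0.19 to 0.01. In hIAPP/BACE2-KO against BACE2-KO, Plxna3 ran from -0.15 to 0.145, Sez6l from -0.038 to 0.412 and Sez6l2 from -0.338 to 0.042. With the mean of the probe sets, Aplp2 was 0.042 in BACE2-KO against WT. With the Y-linked covariate, Sez6l2 was -0.09 in BACE2-KO against WT and Fgfr1 0.005 in hIAPP against WT. With array weights, Plxna3 was 0.009 in hIAPP/BACE2-KO against BACE2-KO. Apart from fewer arrays, the cause was not tested.

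The labels give no shared origin to arrays of the same number. Deviations of same-numbered arrays from their group means had a median r of 0.14, with 10 of 18 pairs over 0.1. This is a hint of pairing from the data, not the design, that did not hold for every pair. Other pairs had a median of -0.07, with 5 of 36 over 0.1. Deviations cancel within a group, so the other pairs are not an independent comparison. With the replicate number as a block, 0 substrates were called in each comparison. Over all genes that block called 22 rather than 16 in BACE2-KO against WT, 29 rather than 13 in hIAPP/BACE2-KO against hIAPP, 205 rather than 118 with BACE2 loss averaged and 27 rather than 17 in hIAPP/BACE2-KO against WT. Over all settings at the same threshold these counts ran from 4 to 36, from 3 to 29, from 46 (without the first or second WT array) to 205, and from 0 (without the second hIAPP/BACE2-KO array) to 34, in that order. The 3 arrays a genotype limit the precision to the intervals given.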
